A study of Mus musculus with 179 samples.

Results

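The prefrontal cortex (PFC) of adult female mice was compared between animals exposed to sub-threshold variable stress (STVS), in which mild stressors of different kinds follow each other for a brief period, and animals that were not, all after standard rearing. The libraries were chosen by their titles and labels: 5 from the STVS group and 6 from the control group, 11 of the 179 samples of the series. Each library was 1 C57Bl6/j mouse, and all female tissue came from one cohort. Tissue was taken 24 h after behavioural testing, in the light cycle, so both groups had been tested. The protocol text shared by all samples speaks of male mice, while the labels of these libraries say female. For comparison, 6 STVS and 5 control PFC libraries came from females given early life stress (ELS), an adverse rearing condition, on postnatal days 10 to 20, and libraries of the nucleus accumbens (NAc) and ventral tegmental area (VTA) came from standard-reared females of the same 2 adult conditions. The question was which PFC genes differ after a mild adult stress in mice with an undisturbed early life.

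The prefrontal cortex steers the response to stress, and its glutamatergic pyramidal neurons carry dense receptors for the stress steroid corticosterone. Stress acts there on several time scales: activity-induced immediate early genes respond to single events, glucocorticoid-induced genes follow the steroid, and the unfolded protein response adjusts the folding capacity of the endoplasmic reticulum (ER). Variable stress regimes are used in female mice because a short course is meant to leave behaviour near normal while a prior adversity may unmask an effect.

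No gene differed at an adjusted p under 0.05 between STVS and control PFC. The smallest Benjamini-Hochberg adjusted p from limma over 14000 genes was 0.861, and edgeR and DESeq2 on whole reads recovered from the normalised values also called 0 genes. At an unadjusted p under 0.05, limma passed 706 genes, which is 5.04% of those tested. Of these, 435 were higher in STVS libraries (3.11%) and 271 lower (1.94%). That split depended on scaling: it was 286 higher and 325 lower after quantile normalisation, 305 and 335 in DESeq2, and 244 and 373 in edgeR. By sign alone, 8200 genes were higher in STVS libraries (58.6%) and 5800 lower (41.4%), while edgeR had 6710 higher. The differences were small, with a log2 fold change within 0.25 in size for 96.3% of genes and a median of 0.02, and the median standard error was 0.07.

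Values below are normalised reads, the gene's reads divided by 1 factor for its library, and fold changes are STVS over control on the log2(value + 1) scale with their standard error. The depth was 24.0 to 29.5 M reads in STVS libraries and 24.2 to 33.0 M in controls. PFC identity was plain in both groups. Slc17a7, the vesicular glutamate transporter of cortical neurons, ran from 51722 to 66357 in STVS and from 49017 to 59350 in control libraries. The dopamine transporter Slc6a3 stayed at 18.1 or below in all 11. The library labelled STVS 3 stood apart in Xist, the RNA that silences 1 X chromosome in females, with 166 normalised reads against 22994 to 30175 in the other STVS libraries and 26909 to 34624 in controls. The same library was lowest for Eif2s3x, a gene that escapes X inactivation, at 3674 normalised reads, against 5187 to 5391 in the other STVS libraries and 4983 to 5279 in controls, while Y-linked Ddx3y was at 0 in it. The library labelled STVS 1 stood apart in haemoglobin, described with the blood genes. Without STVS libraries 1 and 3 limma still called 0 genes, and 755 passed an unadjusted p under 0.05. Punches are bulk tissue, so fewer cells of a type and less RNA per cell cannot be told apart.

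Among the genes of smallest unadjusted p, those higher in STVS libraries included the stress-response factor Atf4 and the mitochondrial genes Ndufv2, Bnip3 and Lyrm4, and the leading gene was the kinase Pim1. Those lower included the receptor tyrosine kinase Mst1r, the microtubule-associated gene Dcdc2a and the transporter Mfsd10. All 24 described here, 12 on each side, had an adjusted p of 0.861 in limma, so each is a description of these 11 libraries. They were chosen by p in this comparison, which fixes their small p and their direction. Fold changes of the 12 higher genes ran from 0.12 to 0.49, and those of the 12 lower from -0.53 to -0.15. In edgeR all 24 kept their direction.

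Pim1, a serine/threonine kinase induced by cytokines and growth signals, had 63.9, 67.9, 80.4, 74.5 and 79.9 normalised reads in the 5 STVS libraries, against a lowest of 40.5, a median of 55.1 and a highest of 57.8 in controls. The groups did not overlap. Its log2 fold change was 0.49 ± 0.12 (unadjusted p = 0.000313, limma). Groups without overlap were found for 58 genes higher in STVS (0.414%) and 26 lower (0.186%) of the 14000.

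The mitochondrial genes were far more abundant and differed by less. Ndufv2, a core subunit of respiratory complex I, had 2941, 2834, 2857, 3037 and 2891 normalised reads in STVS libraries, against 2459, 2629 and 2712 in controls (lowest, median and highest). All STVS libraries lay above all controls, and the log2 fold change was 0.15 ± 0.04. Bnip3, a protein of the outer mitochondrial membrane that promotes mitophagy, had 3681, 3772, 3878, 3724 and 3913 normalised reads in STVS libraries, against 3103, 3348 and 3554 in controls. Its groups did not overlap either, with a log2 fold change of 0.19 ± 0.05. Lyrm4, which takes part in iron-sulphur cluster assembly, averaged 572 ± 50.8 normalised reads in STVS libraries and 501 ± 20.6 in controls (SD, n = 5 and 6), and STVS library 5 stood highest at 661. Chchd10, a small protein of the mitochondrial intermembrane space, was named for its fold among genes without overlap, and had 3412, 3229, 3504, 3083 and 3683 normalised reads in STVS libraries, against 2135, 2913 and 2967 in controls. Its log2 fold change was 0.31 ± 0.11, and 1 control at 2135 lay well below the control median.

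The other higher genes had varied roles. Deptor, an inhibitor of the growth kinase mTOR, had 2002, 1903, 2193, 1915 and 2153 normalised reads in STVS libraries, against 1555, 1694 and 1849 in controls. The groups did not overlap, and the log2 fold change was 0.25 ± 0.07. Rerg, a Ras-related small GTPase, averaged 106 ± 13.5 normalised reads in STVS libraries and 79.5 ± 4.14 in controls (SD), with a log2 fold change of 0.41 ± 0.11. Tmem97, the sigma-2 receptor of the ER, averaged 550 ± 21.8 in STVS libraries and 484 ± 35.0 in controls (SD). Hmox1, the stress-inducible haem oxygenase, averaged 122 ± 6.41 in STVS libraries and 99.5 ± 6.14 in controls (SD), with a log2 fold change of 0.30 ± 0.12 and no overlap. The nuclear factor Akirin1, the F-box protein Fbxw2, the ubiquitin ligase adaptor Dcaf10 and the zinc finger gene Zfp354b completed the 12, with log2 fold changes of 0.17, 0.13, 0.12 and 0.32. Of these, Akirin1 and Fbxw2 did not overlap between groups, while Dcaf10 and Zfp354b did. Sgcz, a sarcoglycan of low level, had no overlap and a log2 fold change of 0.37 ± 0.18.

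On the lower side, Dcdc2a, a doublecortin family gene of microtubules and cilia, had 230, 230, 215, 249 and 214 normalised reads in STVS libraries, against 269, 282 and 307 in controls. Every STVS library lay below every control, and the log2 fold change was -0.31 ± 0.08 (unadjusted p = 0.000627, limma). Mst1r, the receptor of macrophage-stimulating protein, had 55.9, 44.6, 42.8, 51.8 and 36.5 normalised reads in STVS libraries, against 57.0, 67.9 and 72.7 in controls. Its groups were apart by about 1 read, and its log2 fold change of -0.53 ± 0.15 was the largest in size of the 24. Mfsd10, a membrane transporter, had 426, 406, 462, 459 and 449 in STVS libraries, against 466, 520 and 542 in controls, and Hyal2, a hyaluronidase, had 212, 181, 197, 208 and 193 in STVS libraries, against 215, 229 and 235 in controls. Neither overlapped between groups.

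The other 8 lower genes overlapped between groups. They were Fbxw17, the centriole gene Cntrob, the meiotic gene Syce2, the phosphatase Ptpn13, Pnma3, Fam76b, the microtubule linker Hook2 and Tert, the telomerase reverse transcriptase. Fam76b averaged 710 ± 37.0 normalised reads in STVS libraries and 788 ± 47.7 in controls (SD), with STVS library 2 at 774. Syce2 had 45.3, 31.8, 37.6, 67.0 and 43.4 in STVS libraries, against 47.1, 62.5 and 76.0 in controls, so STVS library 4 lay above the control median. Named for their fold among genes without overlap, Csf2ra, a cytokine receptor chain, averaged 634 ± 75.3 in STVS libraries and 775 ± 57.4 in controls. The microtubule-severing gene Fign and the collagen gene Col5a3 averaged 46.1 ± 2.39 and 65.95 ± 3.62 in STVS libraries, and 58.4 ± 3.95 and 82.6 ± 12.2 in controls (SD).

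**Figure D1:**
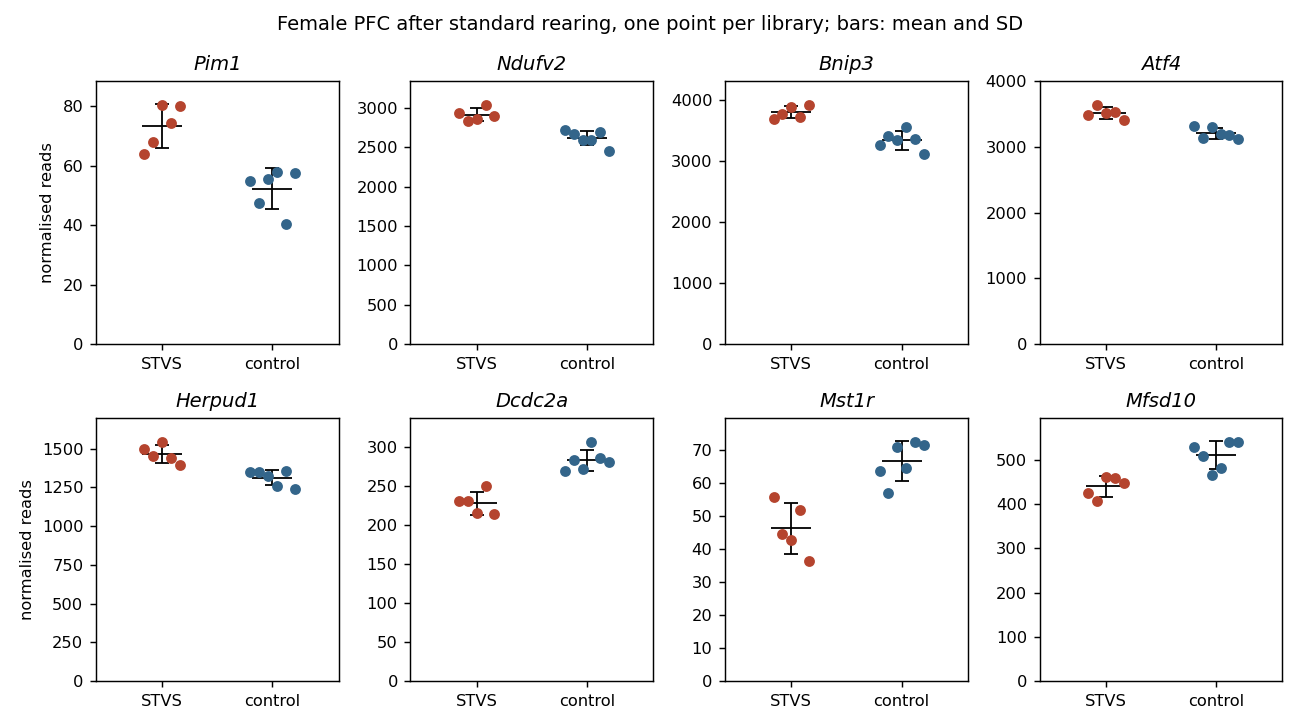
Normalised reads of 8 genes (y axis, from 0) in the 5 STVS libraries (left) and the 6 control libraries (right) of standard-reared female PFC. Points are libraries and bars are the mean and SD; the 8 genes were picked from those whose groups do not overlap, and Pim1 sits between 63.9 and 80.4 in STVS libraries and between 40.5 and 57.8 in controls.

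**Figure D2:**
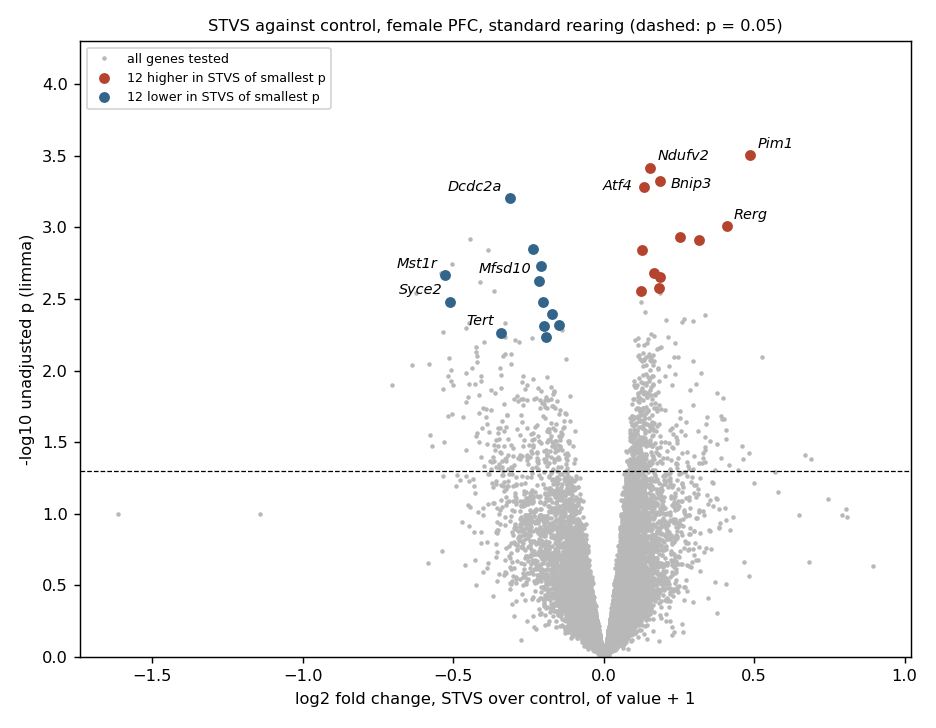
Each point is 1 of 14000 genes, with the log2 fold change of STVS over control (x axis) and the -log10 of the unadjusted p from limma (y axis). Coloured points are the 12 genes of smallest p on each side whose symbol is not a model name; 706 genes lie above the dashed threshold, and no gene passed after adjustment.

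Gene lists were read against all genes tested, of which 58.6% were higher in STVS libraries by sign, 3.11% higher at an unadjusted p under 0.05 and 0.414% higher without overlap. The ER chaperone list holds folding enzymes of the ER and the regulators of the unfolded protein response, in which Xbp1 and Atf4 switch on chaperones when misfolded protein builds up. All 17 measured members had a positive log2 fold change, with a median of 0.10, against 0.02 for all genes, and the median ran from 0.08 to 0.11 as single libraries were left out. By edgeR the median was 0.07 and 12 of 17 were positive, since 5 members lay close to 0. Without STVS library 3, 15 of 17 were positive. Of the 17, 6 passed an unadjusted p under 0.05 in limma and 3 in edgeR, and Atf4 and Herpud1 had no overlap. The list mean lay above the control mean in 5 of 5 STVS libraries, but the groups overlapped: STVS library 2 was at 0.02 and control libraries 1 and 2 were at 0.06, in mean log2 units over the control mean. A median of this size was not particular to ER genes. The pan-neuronal and glutamate neuron list also had 0.10 (0.08 by edgeR), with 10 of 12 positive and 0 past an unadjusted p under 0.05. Its mean was likewise above the control mean in 5 of 5 STVS libraries. Upper cortical layer and myelin lists had medians of 0.10 too.

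Atf4, the transcription factor of the integrated stress response, had 3491, 3639, 3510, 3538 and 3406 normalised reads in STVS libraries, against 3123, 3187 and 3314 in controls. All STVS libraries lay above all controls, and the log2 fold change was 0.13 ± 0.03 (unadjusted p = 0.000518, limma). Herpud1, which helps degrade ER proteins, had 1496, 1453, 1546, 1438 and 1397 in STVS libraries, against 1243, 1336 and 1359 in controls, with a log2 fold change of 0.16 ± 0.05. Manf, a secreted ER stress protein, averaged 881 ± 86.9 in STVS libraries and 761 ± 40.8 in controls (SD), with STVS library 2 at 760, near the control median. Dnajb11, a co-chaperone, averaged 1459 ± 51.1 in STVS libraries and 1367 ± 71.3 in controls (SD), a log2 fold change of 0.10 ± 0.04. Xbp1 and the co-chaperone Dnajc3, named after their values were seen, had log2 fold changes of 0.13 ± 0.06 and 0.15 ± 0.07. Hspa5, the main ER chaperone, had a log2 fold change of 0.13 ± 0.09 that did not pass, while Canx, Pdia6, Hsp90b1 and Hyou1 were at 0.00, 0.00, 0.01 and 0.01.

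The sequences around the start sites of Atf4, Herpud1 and Dnajb11 are shown because these 3 genes belong to 1 stress response and had positive fold changes, and that of Bnip3 because it was among the 4 smallest p. They are RefSeq sequences of build GRCm38.p6 (the files' build, mm10), 250 bases before to 50 after the start, at chr15:80254934-80255233 (Atf4, plus strand), chr8:94386179-94386478 (Herpud1, plus), chr16:22857595-22857894 (Dnajb11, plus) and chr7:138909457-138909756 (Bnip3, minus). Capitals mark only matches to the motifs searched for, which are given after the sequences.
Atf4: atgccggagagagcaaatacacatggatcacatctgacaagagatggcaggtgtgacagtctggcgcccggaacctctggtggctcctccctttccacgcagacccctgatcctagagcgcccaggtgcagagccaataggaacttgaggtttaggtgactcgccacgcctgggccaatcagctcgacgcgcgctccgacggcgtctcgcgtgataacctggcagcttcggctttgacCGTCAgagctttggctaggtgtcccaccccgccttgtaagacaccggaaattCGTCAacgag
Herpud1: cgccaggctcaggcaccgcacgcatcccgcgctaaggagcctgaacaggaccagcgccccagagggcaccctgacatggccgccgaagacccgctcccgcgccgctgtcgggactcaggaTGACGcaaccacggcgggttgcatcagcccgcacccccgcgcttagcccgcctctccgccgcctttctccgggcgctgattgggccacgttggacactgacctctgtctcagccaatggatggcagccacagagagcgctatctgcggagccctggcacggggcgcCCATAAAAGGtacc
Dnajb11: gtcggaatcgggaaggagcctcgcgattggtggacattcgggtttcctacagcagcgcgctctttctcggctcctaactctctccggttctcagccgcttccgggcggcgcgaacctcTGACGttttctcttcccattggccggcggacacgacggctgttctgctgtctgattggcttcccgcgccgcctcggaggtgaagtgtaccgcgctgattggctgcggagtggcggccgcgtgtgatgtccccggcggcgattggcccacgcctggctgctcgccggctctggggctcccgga
Bnip3: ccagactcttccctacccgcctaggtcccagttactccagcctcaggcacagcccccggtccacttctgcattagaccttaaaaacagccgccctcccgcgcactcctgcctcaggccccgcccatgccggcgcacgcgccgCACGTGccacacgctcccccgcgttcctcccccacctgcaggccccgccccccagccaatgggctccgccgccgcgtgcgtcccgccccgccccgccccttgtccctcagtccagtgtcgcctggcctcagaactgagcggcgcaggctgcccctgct
Both strands were searched for the cAMP response element TGACGTCA and its core TGACG, which overlap, the serum response element, the glucocorticoid response element, the E-box CACGTG and the ER stress response element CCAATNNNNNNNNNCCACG, the last added after values were seen. The core was in Atf4 (2 times), Herpud1 and Dnajb11, and is in 20.8% of the 32851 promoters of 300 bases. Herpud1 also held a serum response element match just after its start site (1.63% of promoters), and Bnip3 an E-box (7.15%). The full cAMP response element is in 1.79% of promoters, the ER stress response element in 0.119% and the glucocorticoid response element in 0.00913%, and none of these 3 letter patterns is in the 4 windows. Other forms of the ER stress response element were not searched, so these windows are not shown to lack one. These matches describe letters, not binding.

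Of the 19 glucocorticoid-induced genes tested, 16 had a positive log2 fold change (16 by edgeR), the median was 0.11 (0.07 to 0.14 with single libraries left out), 4 passed an unadjusted p under 0.05 in limma and 1 in edgeR, and none was without overlap. Errfi1, a feedback inhibitor of the EGF receptor, had 858, 937, 843, 991 and 835 normalised reads in STVS libraries, against 727, 805 and 835 in controls. STVS library 5 and the highest control both rounded to 835, and the log2 fold change was 0.18 ± 0.06. Tsc22d3, also called GILZ and a classical steroid target, averaged 1616 ± 212 in STVS libraries and 1413 ± 154 in controls (SD). The transcription factors Klf9 and Zbtb16 averaged 5136 ± 392 and 1887 ± 173 in STVS libraries, and 4659 ± 366 and 1705 ± 134 in controls (SD). Other textbook targets were closer to 0: Fkbp5, a co-chaperone of the receptor, had a log2 fold change of 0.12 ± 0.07, the kinase gene Sgk1 0.06 ± 0.07 and the clock gene Per1 -0.04 ± 0.12. These 3 were named after their values were seen. The list mean lay above the control mean in 5 of 5 STVS libraries, from 0.03 to 0.23 in log2 units, but controls 5 and 6 were at 0.13 and 0.15. Nr3c1, the glucocorticoid receptor itself, averaged 3960 ± 144 normalised reads in STVS libraries and 3782 ± 136 in controls (SD). The wider corticosteroid and CRF system list had 7 of 8 positive members and none past an unadjusted p under 0.05; Crh, the stress peptide, averaged 138 ± 13.3 in STVS libraries and 120 ± 17.9 in controls.

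Immediate early genes spread widely among the STVS libraries. Of 25 members 21 had a positive log2 fold change, the median was 0.19 (0.08 to 0.21 with single libraries left out), and 1 passed an unadjusted p under 0.05. This was Egr3, a zinc finger factor, with 2771, 2363, 3573, 3126 and 2638 normalised reads in STVS libraries, against 2227, 2419 and 2714 in controls. Without STVS library 3 its log2 fold change was 0.16, against 0.24 ± 0.10 with it. Fos, the archetype of the class, had 938, 1466, 914, 2093 and 2244 in STVS libraries, against 893, 1219 and 1644 in controls, and Arc, a synaptic plasticity gene, had 6386, 6301, 8053, 10143 and 9789 in STVS libraries, against 4251, 6178 and 8496 in controls. STVS libraries 4 and 5 were highest for both genes, above every control, while STVS libraries 1 and 3 were within the controls. These 2 genes were named after their values were seen. Other members differed: Egr3 was highest in STVS library 3, and Homer1 in STVS library 5 (6543) lay below the control median (6682). The mean of the immediate early gene list was above the control mean in 3 of 5 STVS libraries, and the groups overlapped. Bdnf, the activity-dependent neurotrophin, averaged 1391 ± 180 in STVS libraries and 1213 ± 106 in controls (SD), with STVS library 2 lowest of all 11 at 1080. Homer1 and Ier5 had log2 fold changes of 0.19 ± 0.12 and 0.15 ± 0.09.

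Respiratory chain genes were positive in 23 of 24 members, by limma and by edgeR, but with a median log2 fold change of 0.05. Besides Ndufv2, only Cox5a, a subunit of cytochrome c oxidase, passed an unadjusted p under 0.05. It had 1738, 1561, 1702, 1793 and 1625 normalised reads in STVS libraries, against 1397, 1515 and 1607 in controls, with 1 STVS library inside the control range. Cox6c and Ndufb9 had log2 fold changes of 0.12 ± 0.06 and 0.11 ± 0.06. The list mean did not separate the groups, since it was above the control mean in 3 of 5 STVS libraries, with libraries 1 and 5 at 0.13 and 0.19. Cytosolic ribosomal protein genes went the other way by sign, with 10 of 32 positive and a median of -0.02, and none passed an unadjusted p under 0.05. Without STVS library 3 the direction turned, with 20 of 32 positive and a median of 0.01.

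**Figure D3:**
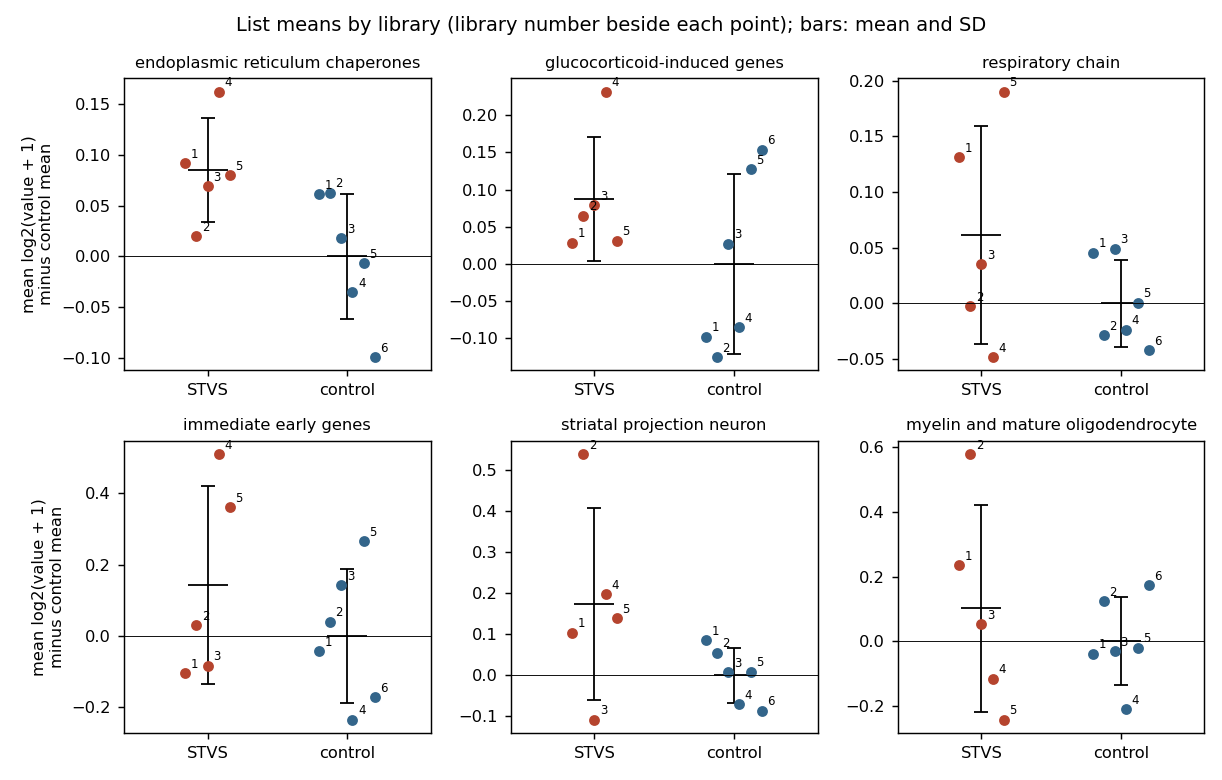
Mean log2(value + 1) of a list's tested members minus the control mean (y axis) for 6 lists, in the 5 STVS (left) and 6 control (right) libraries, numbered, with the mean and SD. ER chaperone and glucocorticoid-induced means lie above 0 in 5 of 5 STVS libraries but overlap with controls. The immediate early gene mean lies above 0 in 3 of 5 STVS libraries, and STVS library 2 is highest for the striatal and myelin lists.

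Markers of striatal projection neurons had the largest median of the lists apart from blood, 0.26, with 10 of 13 tested members positive, 4 past an unadjusted p under 0.05 and Pde10a without overlap. The opioid precursor gene Pdyn had 846, 954, 865, 885 and 1029 normalised reads in STVS libraries, against 687, 766 and 849 in controls. Only STVS library 1 lay inside the control range, and the log2 fold change was 0.27 ± 0.08. Pde10a, a phosphodiesterase, had 3522, 2626, 3372, 2620 and 2668 in STVS libraries, against 2175, 2490 and 2616 in controls, so libraries 2, 4 and 5 were just above the highest control. The enkephalin precursor gene Penk averaged 752 ± 148 in STVS libraries and 563 ± 77.1 in controls (SD). Some cortical neurons can express genes of this list too, and bulk libraries do not show which cells supplied the reads. The summed level of the 14 listed genes found ran from 10333 to 12445 normalised reads in STVS and from 9304 to 10108 in control libraries, and no listed gene was at 0 in all 11. These sums did not overlap between groups, while the list mean of log2 levels did. Adora2a and Drd1a, markers of different projection pathways, did not move together. Adora2a, of indirect-pathway neurons, had 67.9, 194, 62.3, 96.1 and 150 in STVS libraries, against 63.2, 77.7 and 93.4 in controls, and Drd1a, of direct-pathway neurons, had 497, 724, 309, 647 and 427 in STVS libraries, against 366, 609 and 754 in controls. Adora2a was high in STVS libraries 2 and 5, and the list mean was 0.54 log2 units over the control mean in library 2 and -0.11 in library 3. The part of neighbouring striatal tissue in these values was not tested. Without STVS library 2 the list's median was 0.13.

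Blood and glial markers moved with single libraries. STVS library 1 had 2719 normalised reads of the alpha globin gene Hba-a1, against 171 to 464 in the other STVS libraries and 229 to 290 in controls, and 437 of Alas2, an erythroid haem synthesis gene, against 43.2 to 53.2 in the other STVS libraries and 35.8 to 53.0 in controls. All 5 blood genes had a positive log2 fold change, with a median of 0.79, and of 0.13 without that library. The summed level of the list was 784 to 10846 in STVS libraries and 934 to 1138 in controls. Myelin genes were positive in 15 of 16 members (median 0.10), with a summed level of 45967 to 79664 in STVS libraries and 45883 to 60525 in controls. STVS library 2 held the highest value, and without one or another library the median ran from 0.01 to 0.20. Meningeal and fibroblast genes were positive in 2 of 11, with a median of -0.19 that ran from -0.32 to 0.01 as single libraries were left out; their summed level was 4955 to 12505 in STVS libraries and 5040 to 23951 in controls. None of the blood, myelin or meningeal genes passed an unadjusted p under 0.05 in limma. In edgeR all 5 blood genes did, with a median of 1.56 and unadjusted p values of 0.00806 for Hba-a1 and 0.00981 for Alas2, and 0 of the myelin or meningeal genes did. The part of blood, white matter or meninges in other results was not tested.

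Lists of neuronal receptors lay close to 0. GABA receptor subunits were positive in 13 of 14 members with a median of 0.06 (10 of 14 by edgeR). AMPA, NMDA and kainate receptor subunits were positive in 7 of 15 (median -0.01), monoamine receptors in 13 of 20 (median 0.05), neurotrophic factors and receptors in 6 of 10 (median 0.02) and sex hormone receptors and steroid enzymes in 4 of 7 (median 0.02), and none of these passed an unadjusted p under 0.05. Metabotropic glutamate receptors were positive in 3 of 7, where Grm4, a presynaptic receptor, averaged 759 ± 43.0 normalised reads in STVS libraries and 676 ± 51.6 in controls (SD). Among perineuronal net genes 6 of 10 were positive. Its link protein gene Hapln1 averaged 805 ± 242 in STVS libraries and 650 ± 97.9 in controls (SD), where STVS library 5 at 1233 stood far above the other 4. Interferon response genes were positive in 10 of 12 with a median of 0.09 that ran from -0.01 (without STVS library 2) to 0.17 (without control library 6) as single libraries were left out, and Ifit2, an antiviral effector, averaged 373 ± 22.4 in STVS libraries and 332 ± 23.2 in controls (SD). Circadian clock genes were positive in 14 of 18 (median 0.06) and cytosolic heat shock genes in 11 of 16 (median 0.03).

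The same adult stress was also measured in ELS-reared mice. No gene differed at an adjusted p under 0.05 in the ELS-reared PFC (limma; 455 at an unadjusted p under 0.05, 3.25% of 14000), and none differed between the STVS effects of the 2 rearings. The smallest adjusted p of that difference was 0.584, edgeR called 0, and 1108 genes had an unadjusted p under 0.05 (7.91%), 654 with a positive difference (4.67%) and 454 with a negative one (3.24%). This split also depended on scaling: it was 428 positive and 587 negative in edgeR, and 449 and 526 after quantile normalisation. The 2 comparisons share no library. Across the 14000 genes their fold changes had a Pearson correlation of -0.22 and a Spearman correlation of -0.27, and 38.0% of genes had the same sign. Genes are not independent of each other, so these values are descriptions. Of the 24 genes of smallest p, 2 of the 12 higher and 4 of the 12 lower had the same sign after ELS.

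Bnip3, Atf4 and Cox5a, picked for this after their values were seen, had opposite signs after the 2 rearings. They were named for small p after standard rearing, and the difference by rearing reuses those libraries, so its size and p are partly fixed. Bnip3 had a log2 fold change of 0.19 ± 0.05 after standard rearing and of -0.12 ± 0.05 after ELS, a difference of 0.30 ± 0.07 (unadjusted p = 0.0001, adjusted p = 0.584, limma). Atf4 had 0.13 ± 0.03 after standard rearing and -0.06 ± 0.03 after ELS, a difference of 0.20 ± 0.05. Cox5a had 0.16 ± 0.06 after standard rearing and -0.13 ± 0.06 after ELS, a difference of 0.28 ± 0.08. By sign, 6418 of the 14000 genes were higher in STVS libraries after ELS. In the ER chaperone list 3 of 17 members were positive after ELS, with a median of -0.05. In the respiratory chain list 4 of 24 were positive, in the GABA receptor list 3 of 14, and in the corticosteroid and CRF list 1 of 8, while ribosomal protein genes were positive in 31 of 32. Glucocorticoid-induced genes were positive in 13 of 19 after ELS. These counts come from medians near 0, and no test of a list was made. Cell-type markers also differed between the ELS-reared groups. Myelin genes were positive in 16 of 16 after ELS, with a median of 0.41 and a summed level of 47652 to 149067 normalised reads in STVS libraries and 48912 to 71393 in controls, and ELS STVS libraries 2 and 6 were highest, at 149067 and 122059. Meningeal and fibroblast genes were positive in 0 of 11, with a median of -0.37 and a summed level of 4002 to 6094 in STVS libraries and 4841 to 14564 in controls. The part of white matter or meninges in the differences by rearing was not tested.

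**Figure D4:**
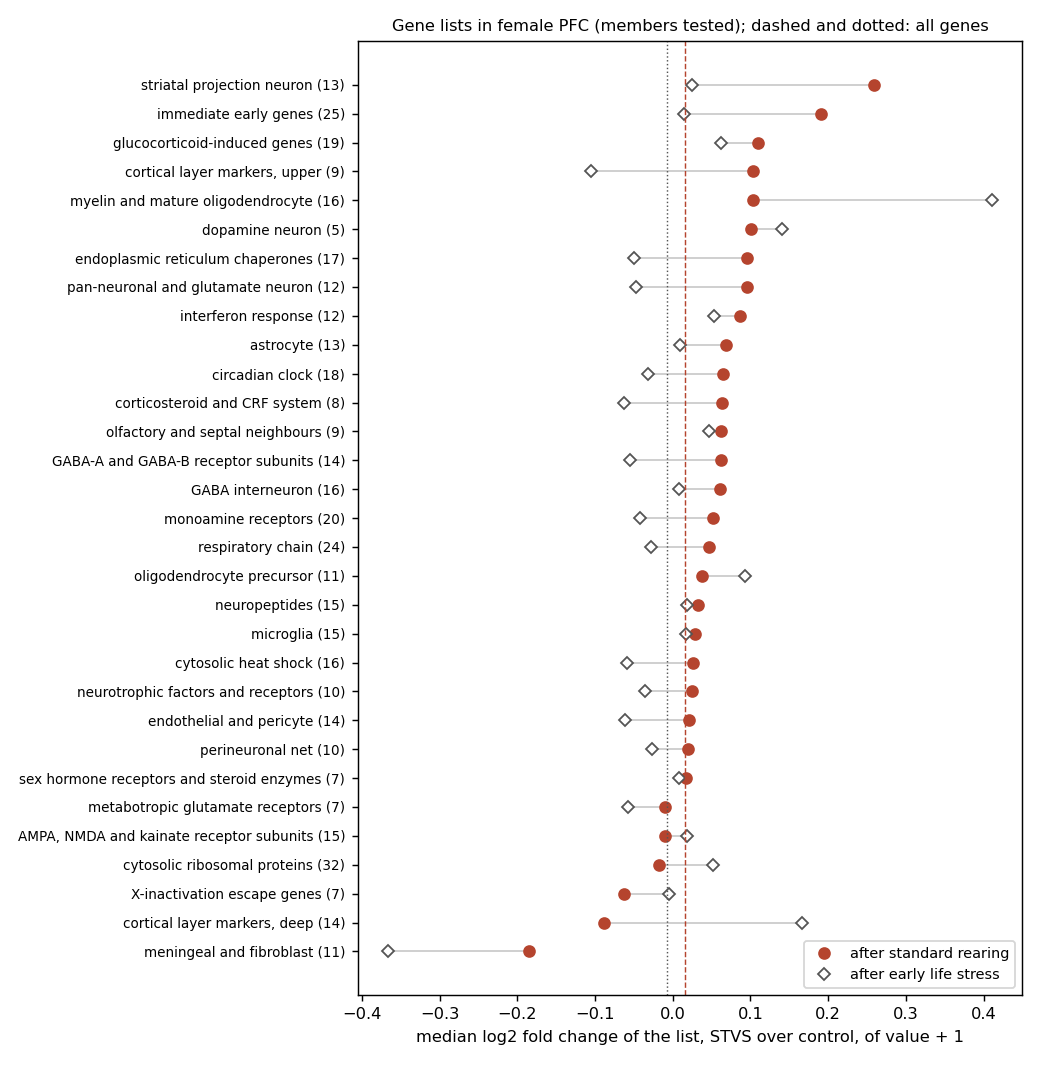
Median log2 fold change of STVS over control (x axis) for 31 gene lists, in standard-reared (filled) and ELS-reared (open) female PFC; numbers in brackets are members tested, and vertical lines are the medians of all genes. The ER chaperone list lies at 0.10 after standard rearing and at -0.05 after ELS.

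**Figure D5:**
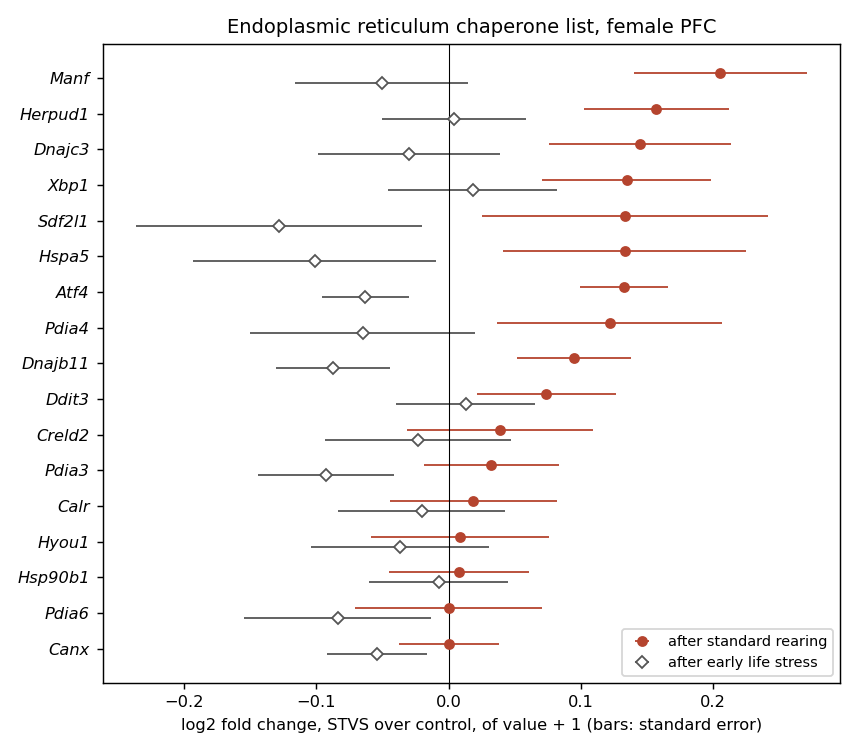
Log2 fold change of STVS over control with its standard error (x axis) for the 17 genes of the ER chaperone list, after standard rearing (filled) and after ELS (open). The list also holds genes that are not chaperones, such as Atf4, Xbp1 and Herpud1. All 17 filled points are at or above 0, and 3 of the 17 open points are.

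In the other regions of standard-reared females, the STVS effect did not differ from that of the PFC for any gene after adjustment (limma; 0 for NAc with 539 at an unadjusted p under 0.05, 3.85%, and 0 for VTA with 445, 3.18%). The regions came from one cohort, and no label says whether libraries of the same number come from the same mouse. The standard-reared STVS library numbered 3 was the lowest of its group for Xist in each region, with 166 normalised reads in PFC, 101 in NAc and 6152 in VTA, and likewise for Eif2s3x, with 3674, 3139 and 6042. Same-numbered libraries of 1 condition correlated in their deviations from the group means at -0.01 to 0.28 between PFC and NAc and at -0.12 to 0.19 between PFC and VTA, and 4 of 11 PFC libraries correlated best with their own number in each case. They were STVS libraries 3, 4 and 5 and control 3 for NAc, and STVS libraries 1, 3 and 4 and control 2 for VTA. The fit treated the libraries as independent. With the shared number as a block, an alternative chosen after seeing the data, the difference between regions was again called for 0 genes (667 for NAc and 530 for VTA at an unadjusted p under 0.05). Atf4 had log2 fold changes of 0.17 in NAc and 0.07 in VTA, Manf 0.18 and 0.04, and Deptor -0.25 and -0.18, opposite to its 0.25 in PFC. Pim1 was at 0.16 in NAc and -0.26 in VTA. Of the 12 higher genes 8 had the same sign in NAc and 6 in VTA, and of the 12 lower genes, Mst1r of which was not tested in those regions, 6 and 5 did. Over all 13668 genes 57.7% had the same sign in NAc and 53.2% in VTA, so these counts lie near the background.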

How the data were processed

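Per the labels' protocols, poly-A RNA from punches of single mice went into TruSeq libraries that do not keep strand, so a gene's reads and those of an antisense transcript cannot be told apart. Multiplexing was balanced over the groups. The authors deposited a signal of normalised reads, gene counts divided by 1 factor per library; HISAT, HTSeq and build mm10 are named in the submitters' processing notes, and no source used here names what computed the factors. All positive values were whole multiples of the value of 1 read (tolerance 0.001), which gave whole reads, although for the libraries whose factor is near 1 normalised and raw reads are nearly the same. The table held 32421 genes, of which 27164 had a symbol. All 25 pairs of libraries of 1 PFC group differed by more than sampling noise (lowest chi-square per gene 2.96), so none was merged. The labels give no sequencing batch for these libraries.

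The 22 female PFC libraries were fitted together with limma 3.58.1 in R 4.3.3, with a trended and robust prior, on log2(value + 1) for the 14000 genes of highest mean, with 1 coefficient per group, and Benjamini-Hochberg adjusted p under 0.05 as threshold. This scale understates changes of low genes. Regions were compared in 1 fit of the 66 female libraries. Alternatives were no filter, log2(value + 10), quantile normalisation, edgeR 4.0.16 (quasi-likelihood, TMM) and DESeq2 1.42.0 on recovered reads, only the 11 libraries, a block on the replicate number, each library left out in turn, and, chosen after seeing the data, leaving out STVS libraries 1 and 3 together and, between regions, a block on the number shared by the regions of 1 condition. The fit was tested on simulated data first.

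Named genes were the 12 higher and 12 lower of smallest p with a symbol that is not a model name, the 5 of largest fold on each side with a mean of at least 50 and no overlap, up to 4 members of each of 34 lists by p and any without overlap, and sex-linked and region markers as a check of the labels. Medians of 31 lists are plotted. Of the other lists, blood and sex chromosome markers are described above, and choroid plexus, with 2 members tested, had a median log2 fold change of -0.14. The comparison, the lists and these rules were chosen with earlier results of these data known. Gene symbols that differ from the table's were matched through RefSeq synonyms. A few genes covered by these rules are not reported here.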

Additional observations from a re-analysis of the deposited data

Results flagged for a closer look

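Of 210 sets of values examined (the genes named and the list means, each in the STVS and in the control libraries), 22 had 1 library far from the rest of its group, where chance gives about 1 in 20. In the STVS group, library 1 stood apart for Hba-a1 (2719 normalised reads), Hbb-b1 (4517), Alas2 (437) and Crh (161), and for the blood list mean, 3.40 log2 units over the control mean. Library 3 stood apart for Xist (166), Eif2s3x (3674), the X-inactivation escape list mean (-0.33) and the sex chromosome marker mean, which rests on Xist (-7.46). Library 2 stood apart for Bdnf (1080, the lowest) and Fam76b (774, the highest). Library 4 was highest for Sgk1 (1871) and for the glucocorticoid-induced list mean (0.23). Library 5 was highest for Hapln1 (1233), Lyrm4 (661) and the GABA interneuron list mean (0.21).

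Among controls, library 6 stood apart for Fam76b (882), the upper cortical layer list mean (0.22) and the oligodendrocyte precursor list mean (0.34). Library 5 was lowest for Tmem97 (417), library 3 highest for Zfp354b (134), and library 2 for the sex hormone receptor and steroid enzyme list mean (0.11).

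For 7 named genes and 1 list, every STVS library lay on one side of its control mean after standard rearing and every STVS library on the other side after ELS. The 71 genes named and the 34 lists were examined, and the share over all genes was not counted. Many of these genes were named for small p or no overlap after standard rearing, which largely fixes their side there. The differences of the log2 fold changes, standard minus ELS rearing, were -0.35 for Fbxw17, -0.37 for Mfsd10, -0.29 for Pnma3, 0.28 for Cox5a, 0.23 for Grm4, 0.18 for Dnajb11 and -0.16 for Kdm6a, and the median over the corticosteroid and CRF system list was 0.11. The smallest adjusted p over all genes for such a difference was 0.584 (limma), so none passed; the list's difference was not tested.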

How the results depend on the processing

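The count of genes at an adjusted p under 0.05 was 0 for STVS after standard rearing under every alternative run, with a smallest adjusted p of 0.07 without a filter. It was also 0 for STVS after ELS, for the difference by rearing and for the difference between PFC and VTA. Between PFC and NAc it was 1 without the NAc libraries whose adult label repeats the sex, and 0 otherwise. Leaving out each library gave 0 in every fit of the 5 comparisons. The count at an unadjusted p under 0.05, 706, was 1600 without a filter (29679 genes tested) and ran from 451 (without STVS library 5) to 1097 (without STVS library 2) as single libraries were left out; without STVS libraries 1 and 3 it was 755.

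The replicate number as a block gave 0 genes and 1188 at an unadjusted p under 0.05, against 706 without it. The smallest adjusted p was 0.534 with the block and 0.861 without (limma). Same-numbered libraries correlated in their deviations from the group means at 0.02, 0.12, 0.13, 0.06 and -0.15, and only number 3 correlated best with its own number. These values cannot tell whether same-numbered libraries share an origin or a batch, and the labels do not say. No adjusted call was made with or without the block.

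The sign changed for Hba-a1 (-0.045) and Drd1a (0.053) without STVS libraries 1 and 3, and for Eif2s3x (0.048 without library 3, 0.040 without 1 and 3). With single libraries left out, log2 fold changes ranged from -0.099 to 0.020 for Per1, from -0.012 to 0.22 for Ppp1r1b, from -0.018 to 0.097 for Sgk1 and from -0.090 to 0.048 for Eif2s3x. Depth was at least 24.0 M reads per library, and the median standard error of a log2 fold change was 0.07.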
